A study of Mus musculus with 2 samples.

Results

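Dividing fibroblasts of the mouse cerebral cortex and its meninges were described in single-cell RNA-seq of cells enriched for CD140a, the surface protein encoded by Pdgfra. They were chosen by the levels of marker genes, in a gate on counts of unique molecules (UMIs). A cell passed with at least 300 genes, at most 25% mitochondrial UMIs, Col1a1, Col1a2 and Col3a1 together at 0.4% or more of its UMIs, the mural genes Rgs5, Kcnj8 and Acta2 below 0.2%, and the oligodendrocyte precursor (OPC) genes Lhfpl3, Tnr and Cacng4 below 0.1%. It counted as dividing with 3 or more UMIs over 6 division genes (Mki67, Top2a, Cenpf, Birc5, Ube2c and Hmmr). This gave 112 dividing fibroblasts among 14265 cells kept, 49 in the N-PRα-KO library and 63 in the WT library. The cells they were set against were the 931 and 540 fibroblasts of the same gate with fewer than 3 division UMIs, called other fibroblasts here.

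The N-PRα-KO library came from mice of the genotype Nestin-Cre;Pdgfra flox/flox, and the WT library from C57BL/6J mice, each captured on the BD Rhapsody system. Nestin-Cre acts in neural progenitors and their descendants, among them OPCs, and meningeal fibroblasts are not its usual target. The labels give neither the age and sex nor the number of animals behind a library. With 1 library per genotype no test between genotypes was possible, genotype and preparation cannot be told apart, and every interval below is a 95% interval for counting error only.

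Meningeal fibroblasts lie in layers: arachnoid cells form a barrier joined by gap and tight junctions, pial cells line the brain surface, dural cells fill the outer sheet, and perivascular fibroblasts follow vessels into the cortex. They make the collagens of the meninges and express Pdgfra and Pdgfrb, receptors of the platelet-derived growth factors that drive fibroblast division. A dividing cell first makes the enzymes of DNA replication under E2F factors, and then, in G2 and mitosis, the cyclins, kinases and spindle proteins whose promoters are bound through CHR and CCAAT elements by the MuvB complex and NF-Y.

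The promoters of 3 mitotic genes and 1 replication gene that stood high in dividing fibroblasts show these elements. The stretches below, from RefSeq on GRCm38.p6, are the bases just before the gene's start, 5′ to 3′ on the gene's strand. Capitals mark TTTGAA (the CHR element) and CCAAT in the first 3 and, in Mcm5, CCAAT and an E2F element, each on either strand.
Depdc1a: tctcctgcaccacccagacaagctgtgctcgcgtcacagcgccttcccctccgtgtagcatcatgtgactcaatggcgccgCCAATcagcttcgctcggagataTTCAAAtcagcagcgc
Cdk1: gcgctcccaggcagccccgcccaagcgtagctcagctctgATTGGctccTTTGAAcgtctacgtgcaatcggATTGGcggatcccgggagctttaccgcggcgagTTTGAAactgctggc
Cdc20: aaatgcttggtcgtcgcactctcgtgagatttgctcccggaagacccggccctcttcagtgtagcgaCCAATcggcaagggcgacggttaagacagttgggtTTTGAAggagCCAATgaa
Mcm5: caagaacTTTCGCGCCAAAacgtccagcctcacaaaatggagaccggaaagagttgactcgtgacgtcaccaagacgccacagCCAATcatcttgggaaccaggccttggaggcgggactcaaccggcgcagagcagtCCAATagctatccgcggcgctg
These stretches lie at chr3:159495313-159495432 (Depdc1a, plus strand), chr10:69352913-69353032 (Cdk1, minus strand), chr4:118437344-118437463 (Cdc20, minus strand) and chr8:75109349-75109508 (Mcm5, plus strand). The Depdc1a CHR element begins 16 bases before the start and its CCAAT box 39 bases before it. In Cdk1 both elements occur as 2 copies, and in Cdc20 the CHR element begins 18 bases before the start. The run of capitals at the 5′ end of Mcm5 holds 2 overlapping E2F matches, which begin 153 and 149 bases before the start. Positions are counted from RefSeq's start; for Mcm5 the GENCODE annotation gives a start further downstream, at 75109569 on chromosome 8.

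Over the gene lists, the same elements were common in promoters of mitotic genes. In windows from 250 bases before to 50 bases after the start, TTTGAA on either strand was in 70.4% of 54 promoters of the mitosis and G2 list (51 of its 65 genes matched), 10.8% of 37 promoters of the S phase list (32 of 43 genes) and 17.9% of all 32851 promoters. CCAAT was in 75.9%, 59.5% and 37.4% of these promoters, and both elements together in 59.3%, 8.11% and 6.95%. E2F elements, searched as TTTGGCGC, TTTCGCGC and TTTCCCGC, were in 9.26%, 35.1% and 1.85%. Both strands were searched, and overlapping matches, such as the E2F pair of Mcm5, count as 1 promoter. A match is only a run of letters.

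The gate and the label were first checked on its own markers and at its edge. All 10 fibroblast markers (Col1a1, Col1a2, Col3a1, Dcn, Lum, Pdgfra, Pdgfrb, Foxc1, Twist1 and Tbx18) had UMIs in the dividing cells of both libraries. Mki67, the Ki-67 antigen of cycling nuclei, was at 816 CPM (UMIs in the summed cells, scaled to 1000000 UMIs) in N-PRα-KO and 671 CPM in WT dividing fibroblasts, with UMIs in 46 of 49 and 55 of 63 cells. Top2a, topoisomerase II of dividing cells, was at 874 and 888 CPM. These values are fixed by the gate and are given as a description.

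Summed over cells, those just inside the threshold were close to those just outside it in mitotic RNA. The 6 N-PRα-KO and 7 WT cells with exactly 3 division UMIs had the 65 mitosis and G2 genes outside the gate at a summed 1798 and 1679 CPM, beside 1702 and 1634 CPM in the 24 and 21 cells with 2 division UMIs. With 4 division UMIs (2 and 7 cells) the list stood at 4537 and 4310 CPM, and with 10 or more (32 and 39 cells) at 17252 and 18335 CPM. The S phase list stood at 964 and 556 CPM in the cells with 3 division UMIs, at 656 and 1124 CPM in those with 2 and at 430 and 513 CPM in those with 0. The cells with 3 division UMIs had median depths of 8379 and 16402 UMIs and held 2 and 0 UMIs of Cdk1. They are nevertheless counted as dividing in the sums below. Their list levels are sums over 6 and 7 cells. These cells differed among themselves, holding 2 to 39 UMIs of the S phase list in N-PRα-KO and 0 to 12 in WT. Division UMIs per cell had a median of 22 in N-PRα-KO and 12 in WT dividing fibroblasts, with maxima of 253 and 89, and a single N-PRα-KO cell held 253 of that library's 1690 division UMIs.

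**Figure D1:**
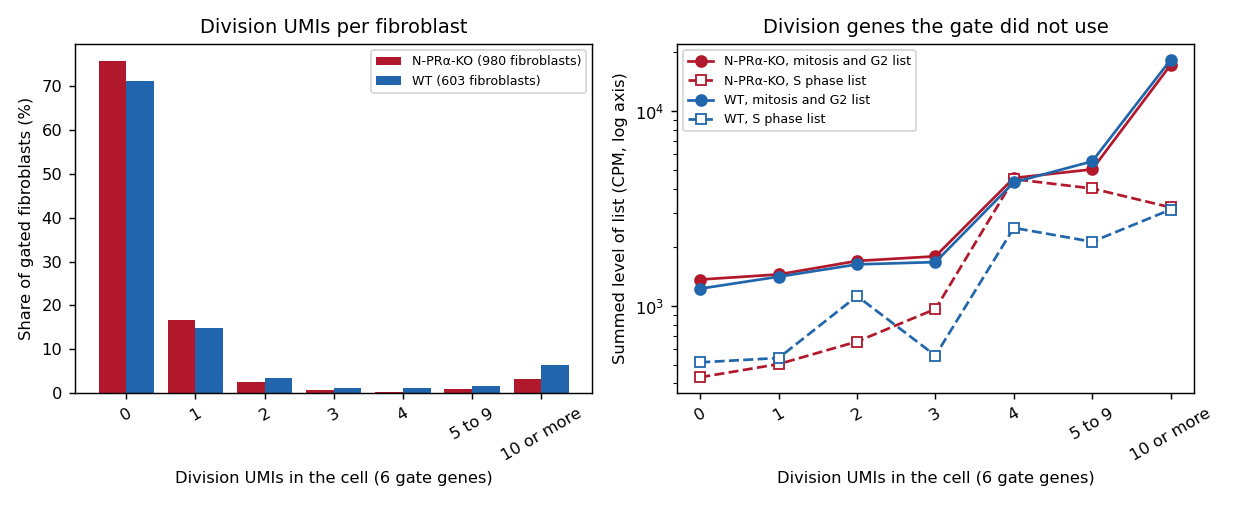
Left, share of gated fibroblasts (%) by division UMIs in the cell for the N-PRα-KO (red) and WT (blue) libraries; right, summed CPM (log axis) of the mitosis and G2 list (filled) and the S phase list (open), neither used by the gate. Most fibroblasts have 0 division UMIs, and the mitosis and G2 list is at most 1798 CPM up to 3 UMIs and reaches 17252 and 18335 CPM at 10 or more.

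The depth of the cells moved with the gate. In the N-PRα-KO library the median depth was 11369 UMIs (3829 genes) for dividing and 6211 UMIs (2521 genes) for other fibroblasts. In the WT library it was 8386 UMIs (2949 genes) for dividing and 4395.5 UMIs (1904 genes) for other fibroblasts. The mitochondrial share had medians of 11.8% and 14.1% in dividing and 13.6% and 17.2% in other fibroblasts. Dividing fibroblasts held 600786 UMIs in all in the N-PRα-KO library and 585452 in the WT library. Of the barcodes, 105 were shared by both libraries, among them 1 dividing fibroblast of the N-PRα-KO library and 0 of the WT library.

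Dividing cells made up 5% of N-PRα-KO fibroblasts (49 of 980, interval 3.72 to 6.56%) and 10.4% of WT fibroblasts (63 of 603, interval 8.12 to 13.2%). With division UMIs counted after each cell was thinned to 2000 UMIs, leaving out 6 and 48 shallower fibroblasts, the shares were 3.29% (32 of 974, 2.26 to 4.61%) and 7.03% (39 of 555, 5.04 to 9.48%). With 10 or more division UMIs they were 3.27% (2.24 to 4.58%) and 6.47% (4.64 to 8.74%). The N-PRα-KO share was thus lower on each of these 3 counts, and its interval stayed below the WT interval on each.

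Ependymal cells, which as a mature type rarely divide, gave a background. In a gate on ependymal markers 4.61% of 477 N-PRα-KO cells (interval 2.91 to 6.90%) and 5.63% of 231 WT cells (3.03 to 9.43%) had 3 or more division UMIs, at median depths of 7421 and 5028 UMIs, beside 6311.5 and 4650 UMIs over all gated fibroblasts. The N-PRα-KO fibroblast share of 5% at 3 UMIs lies within that ependymal interval. The WT share of 10.4% lies above its ependymal interval, though the 2 intervals overlap. At 10 or more UMIs the ependymal shares were 1.26% (0.463 to 2.72%) and 0.433% (0.011 to 2.39%). After thinning they were 1.17% (0.379 to 2.70%) and 2.20% (0.602 to 5.53%). Here the fibroblast shares were higher in both libraries. Their intervals still overlapped the ependymal ones, except in WT at 10 or more UMIs. Cdk1, the kinase that starts mitosis, was at 258 and 313 CPM in dividing fibroblasts and at 75.6 and 36.0 CPM in ependymal cells with 3 or more division UMIs.

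Cells with 3 or more division UMIs were unevenly spread over the cell types of each library. At 3 UMIs the N-PRα-KO shares were 5.95% in OPCs (5 of 84), 7.89% in microglia, 16.6% in endothelial cells and 1.52% in astrocytes, and the WT shares were 19.1% in OPCs (1005 of 5263), 19.6% in microglia, 31.5% in endothelial cells and 3.44% in astrocytes. Each of these 4 types, like fibroblasts, had the lower share in the N-PRα-KO library. Mural cells (6.31% and 33.3%) and the neuronal lineage (17.1% and 22.7%) did too. A cell past this cut was not equally rich in mitotic RNA in each type. The mitosis and G2 list stood at 5158 and 8391 CPM in such endothelial cells and at 6378 and 7573 CPM in such mural cells. It stood at 5692 and 6353 CPM in such ependymal cells and at 12279 and 13074 CPM in dividing fibroblasts. The endothelial and mural shares are therefore not read as shares of dividing cells. In N-PRα-KO the order of types changed with thinning, to 4.16% in endothelial cells, 5.83% in microglia and 5.06% in OPCs, with overlapping intervals. In WT these thinned shares were 21.5%, 20.4% and 18.7%. Thinned shares were 1.29% and 2.40% in astrocytes, 3.19% and 24.0% in mural cells and 14.4% and 31.7% in the neuronal lineage. The library-wide difference stands beside the fibroblast shares as a measured fact, and its part in them was not tested.

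Genes of mitosis dominated what dividing fibroblasts had over other fibroblasts. This contrast is the one the gate was built on, so its values describe the cells and test nothing. Genes were compared at 50 CPM or more in either sum and 20 UMIs or more over both, with the 15 gate genes left out. In the N-PRα-KO library 269 of 4049 genes (6.64%) were 2-fold or more higher and 162 (4%) 2-fold or more lower in dividing fibroblasts. In the WT library these were 269 (6.95%) and 185 (4.78%) of 3872 genes. By any amount, 57.9% of genes were higher and 42.1% lower in N-PRα-KO, and 54.8% higher and 45.2% lower in WT. Over the 3224 genes compared in both libraries, 160 (4.96%) were past 2-fold higher in both and 64 (1.99%) past 2-fold lower in both.

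Of the mitosis and G2 list 53 of 65 genes were compared in each library, and 52 of the 53 were past 2-fold higher in each, with a median log2 ratio of 5.38 in N-PRα-KO and 4.99 in WT, beside 0.092 and 0.058 over all genes compared. The exception in both libraries was Pttg1, securin, at 79.9 CPM in dividing and 85.4 CPM in other fibroblasts of the N-PRα-KO library and at 47.8 and 64.9 CPM in the WT library. Pttg1 reached 389 CPM in another cell type of the N-PRα-KO library.

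The cyclins and kinases of mitosis were nearly absent from other fibroblasts. Ccna2, the cyclin of S and G2 phase (chromosome 3, 36564865 to 36572150, minus strand, GRCm38), was at 453 CPM in dividing and 7.38 CPM in other N-PRα-KO fibroblasts, and at 552 and 9.84 CPM in WT fibroblasts. Its log2 ratios were 5.94 (5.49 to 6.42) and 5.81 (5.24 to 6.43). Ccna2 UMIs were found in 37 of 49 and 44 of 63 dividing cells, against 42 of 931 and 25 of 540 other fibroblasts. Ccnb1, a cyclin of mitosis, was at 156 against 2.83 CPM and 140.1 against 5.47 CPM. Aurkb, a kinase of the chromosomal passenger complex, was at 108 against 0.471 CPM (3 UMIs) in N-PRα-KO and 93.9 against 3.65 CPM in WT, with log2 ratios of 7.84 (6.23 to 10.16) and 4.69 (3.70 to 5.83). Those of Ccnb1 were 5.79 (5.05 to 6.61) and 4.68 (3.87 to 5.58). The intervals of all 3 genes exclude 0 in both libraries, but the gate selects cells for such genes, so this only describes them.

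Spindle and centromere genes were nearly absent from other fibroblasts as well. Depdc1a (chromosome 3, 159495433 to 159529955, plus strand), a mitotic regulator, was at 94.9 CPM in dividing and 0.314 CPM (2 UMIs) in other N-PRα-KO fibroblasts, with a log2 ratio of 8.24 (6.32 to 11.32), and at 188 and 1.46 CPM in WT fibroblasts, with 7.01 (5.61 to 8.91). Bub1, a kinase of the spindle checkpoint, was at 102 against 0.157 CPM (1 UMI) in N-PRα-KO and 181 against 2.55 CPM in WT fibroblasts. Prc1, which bundles the central spindle, was at 384 against 5.65 CPM and 437 against 4.38 CPM, with log2 ratios of 6.09 and 6.64. The motor proteins Kif20a and Cenpe had log2 ratios of 6.84 and 6.09 in N-PRα-KO and 6.04 and 6.19 in WT. Knl1, a kinetochore scaffold, had 6.84 and 5.78, and Ect2, a cytokinesis factor, 6.31 and 6.19.

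Replication genes stood higher too, by less. All 23 members of the S phase list compared in the N-PRα-KO library and all 18 compared in the WT library were past 2-fold higher, with medians of 3.08 and 2.41. Tk1, thymidine kinase, was at 81.6 CPM in dividing and 3.45 CPM in other N-PRα-KO fibroblasts and at 70.0 and 2.92 CPM in WT fibroblasts. Rrm2, the small subunit of ribonucleotide reductase, was at 139.8 against 6.28 CPM and 196 against 13.5 CPM. Mcm5, a subunit of the replicative helicase, was at 115 against 8.32 CPM and 61.5 against 5.1 CPM. Per cell, the S phase list had a median of 20.3 UMIs per 10000 in N-PRα-KO (range 2.14 to 79.4) and 16.6 in WT dividing fibroblasts (0 to 99.4), against 3.41 and 4.08 in other fibroblasts. The mitosis and G2 list had medians of 110.2 and 116.1, against 12.8 and 11.03. Both lists therefore varied widely from one dividing cell to the next. Across dividing cells the 2 lists correlated weakly (Spearman's rho 0.048 over 49 N-PRα-KO cells and 0.36 over 63 WT cells), which is only a description since cells of a library share their preparation and depth.

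Chromatin genes of cycling cells were higher in part. Of this list 14 of 19 genes were past 2-fold higher in N-PRα-KO and 12 of 18 in WT, with medians of 1.52 and 1.53. Stmn1, stathmin, was at 1313 CPM in dividing and 162 CPM in other N-PRα-KO fibroblasts and at 827 and 102 CPM in WT fibroblasts. H2afz, a histone H2A variant, was at 1160.2 against 272 CPM and 2033 against 409.8 CPM. Ezh2, the methyltransferase of histone H3 in Polycomb complexes, was at 166 against 44.1 CPM and 202 against 44.1 CPM. Lmnb1, lamin B1, had log2 ratios of 3.17 and 2.85. Stmn1 reached 4642 and 3782 CPM in other cell types of the N-PRα-KO and WT libraries, and the part of RNA from those cells in its level was not tested.

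Cyclins of G1 and inhibitors did not move as a block. Of the list of G1 cyclins, kinases and E2F factors, 3 of 8 compared genes in each library were past 2-fold higher. Ccnd1, cyclin D1, had log2 ratios of 0.73 and 0.98, and Ccnd2, cyclin D2, had -0.49 and -0.50, so these 2 cyclins went opposite ways in both libraries, except that Ccnd1 was at -0.47 in N-PRα-KO with cells thinned to 2000 UMIs before the gate. Of the cell cycle inhibitors and p53 targets, 1 of 11 compared genes was past 2-fold higher and 1 lower in N-PRα-KO, and 1 of 12 higher and 3 lower in WT. The member past 2-fold higher in both was Cdkn2c, an inhibitor of CDK4 and CDK6, at 151 CPM in dividing and 23.9 CPM in other N-PRα-KO fibroblasts and 121 and 26.3 CPM in WT fibroblasts. The member past 2-fold lower in both was Cdkn1c, the inhibitor p57 of quiescent cells, at 36.6 against 150.1 CPM and 166 against 484 CPM. After such thinning Cdkn1c had a log2 ratio of 0.036 in N-PRα-KO.

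**Figure D2:**
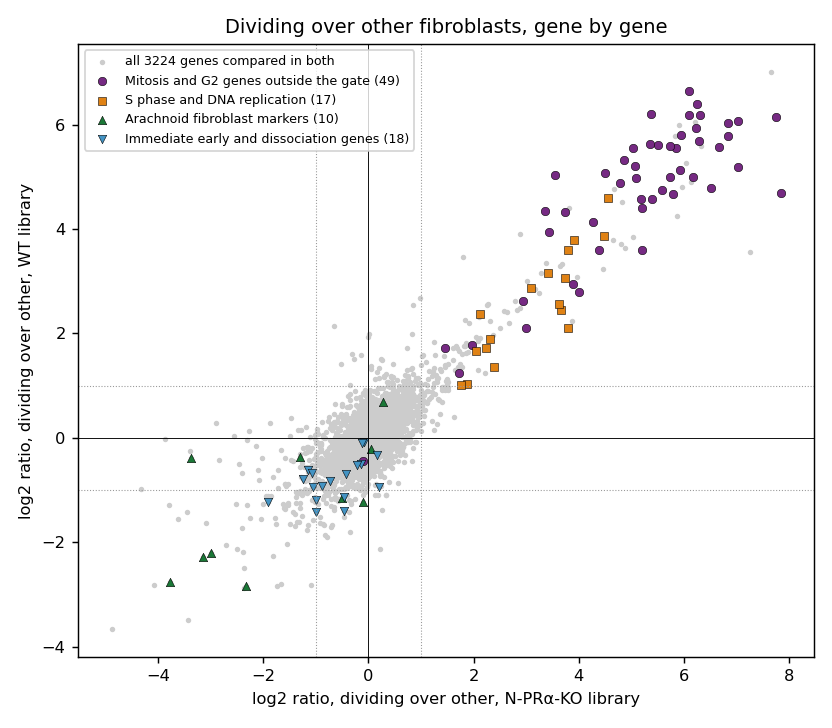
Log2 ratio of each gene in dividing over other fibroblasts in the N-PRα-KO library (horizontal) and the WT library (vertical), with 4 gene lists coloured, all 3224 genes compared in both in grey and dotted lines at 2-fold. Genes of the mitosis and S phase lists lie in the upper right apart from Pttg1, and 4 arachnoid markers lie past 2-fold in the lower left.

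Dividing fibroblasts were low in genes of the arachnoid layer. Of 10 arachnoid markers compared in both libraries 8 were lower in both and 4 were past 2-fold lower in both, and the list's median was -1.81 in N-PRα-KO and -1.19 in WT. Slc6a20a, a proline transporter, was at 33.3 CPM in dividing and 456 CPM in other N-PRα-KO fibroblasts (log2 ratio -3.78, -4.49 to -3.15) and at 207 and 1399 CPM in WT fibroblasts (-2.76, -3.03 to -2.50). Gjb2, connexin 26, was at 41.6 against 331 CPM and 395 against 1821 CPM, and Gjb6, connexin 30, was at 38.3 against 336 CPM and 224 against 1094 CPM. Ptgds, prostaglandin D synthase, was at 1761 against 8788 CPM and 1146 against 8146 CPM. Cldn11, a tight junction claudin, was the exception that was higher in both, with log2 ratios of 0.28 and 0.69. Ptgds also reached 2374 CPM in another cell type of the N-PRα-KO library, and Gjb6, which astrocytes make, 554 CPM.

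Growth factor and signalling genes were lower with them. Of 18 growth factor and receptor genes compared in both libraries 0 were higher in both and 13 were lower in both. Igf1, insulin-like growth factor 1, had 1 UMI in dividing N-PRα-KO fibroblasts (1.66 CPM, against 84.6 CPM in other fibroblasts, log2 ratio -5.67, -10.97 to -3.18) and was at 23.9 against 169 CPM in WT. Tgfbr3, betaglycan, was at 56.6 against 192 CPM and 59.8 against 188 CPM. Of 16 BMP, Wnt and Hedgehog genes compared in both, 13 were lower in both and 0 higher in both. Bmp6 was at 54.9 against 311 CPM and 138 against 602 CPM, and Wnt4 at 9.99 against 64.8 CPM and 17.1 against 71.1 CPM. Bmp6 and Wnt4 were past 2-fold lower in both libraries, as was Wnt5a. Among all genes, 30.9% were lower in both libraries and 44.2% higher in both.

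The 15 genes lowest in both libraries also held 8 genes not described above, of several kinds. Sidt1 was at 6.66 CPM in dividing and 196 CPM in other N-PRα-KO fibroblasts and at 20.5 and 259 CPM in WT fibroblasts. Slc7a11, the cystine transporter, was at 226 against 792 CPM and 401 against 1918 CPM. Slc13a4, a sulfate transporter, was at 33.3 against 171 CPM and 46.1 against 337 CPM. Vcam1, an adhesion molecule for leukocytes, was at 43.3 against 230.0 CPM and 133 against 439 CPM. Ranbp3l was at 23.3 against 120.1 CPM and 70.0 against 397 CPM. Aebp1, a matrix-associated protein, had log2 ratios of -2.39 and -2.18, and Fmod, the proteoglycan fibromodulin, was at 23.3 against 77.4 CPM and 8.54 against 60.9 CPM. Slc13a3, a dicarboxylate transporter, had only 2 and 3 UMIs in dividing fibroblasts, with log2 ratios of -4.01 (-7.06 to -2.14) and -3.49 (-5.78 to -1.92). The 8 were ranked by being low in dividing cells of both libraries, so their intervals, all below 0, only describe them.

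Immediate early genes were mostly lower, without passing 2-fold for most. Of 18 compared in both libraries 16 were lower in both and 2 past 2-fold lower in both, with medians of -0.59 in N-PRα-KO and -0.87 in WT. Egr1, an early-response transcription factor, was at 175 against 652 CPM and 765 against 1792 CPM. Fos was at 396 against 545 CPM and 1505 against 3993 CPM. For Fos in N-PRα-KO the direction turned with the limits used, to a log2 ratio of 0.096 with 10 or more division UMIs and 0.53 within Col15a1-high cells. These genes also respond to tissue dissociation.

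Matrix genes were counted against the same 2-fold limit. Of the matrix glycoproteins and proteoglycans 0 of 34 were past 2-fold higher and 3 lower in N-PRα-KO, and 3 of 36 higher and 4 lower in WT, beside the 6.64% higher and 4% lower of all genes in N-PRα-KO and the 6.95% and 4.78% in WT. Of 16 collagen genes outside the gate compared in both libraries 0 were past 2-fold in both, with medians of -0.085 in N-PRα-KO and 0.19 in WT. Col4a1, a basement membrane collagen, was at 5744 against 5658 CPM in N-PRα-KO and 3262 against 2006 CPM in WT fibroblasts. The collagens of the gate had log2 ratios of -0.72 (Col1a1), -0.68 (Col1a2) and -0.13 (Col3a1) in N-PRα-KO and -0.16, -0.32 and 0.34 in WT. Dcn, the proteoglycan decorin, was at 1931 against 2614 CPM and 3297 against 3899 CPM. Vim, the filament protein vimentin, was at 1529.7 against 878 CPM and 2408 against 1442 CPM, and Lgals1, galectin 1, at 1641 against 769.5 CPM and 132 against 47.8 CPM.

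Some genes had a larger ratio in the WT library. Spp1, osteopontin, was at 263 CPM in dividing and 259 CPM in other N-PRα-KO fibroblasts and at 244 and 61.3 CPM in WT fibroblasts. Fbln2, fibulin 2, was at 811 against 724 CPM and 328 against 136 CPM. Col15a1, a collagen of perivascular fibroblasts, was at 3778 against 3114 CPM and 1499.7 against 771 CPM. The log2 ratio in the N-PRα-KO library was lower than that in the WT library for Spp1 (difference -1.98, -2.37 to -1.58), for Fbln2 (difference -1.104, interval -1.39 to -0.82) and for Col15a1 (-0.68, -0.81 to -0.55), and in each case other fibroblasts of WT had the lowest of the 4 levels. Within Col15a1-high cells Fbln2 was at -0.21 in N-PRα-KO, and Col15a1, which then sets both sides, at -0.13 in N-PRα-KO and -0.11 in WT.

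Cell by cell, dividing fibroblasts were found mostly among Col15a1-high, connexin-low cells, by cuts chosen after the data were seen. The perivascular list as a whole did not follow Col15a1. Its median log2 ratio of dividing over other fibroblasts was 0.074 in N-PRα-KO and -0.14 in WT. Of its 5 genes compared in both libraries, 1 (Col15a1) was higher in both and 2 were lower in both. In N-PRα-KO 47 of 49 dividing fibroblasts (95.9%, 86.0 to 99.5%) had Col15a1 at 0.1% or more of their UMIs, against 641 of 931 other fibroblasts (68.9%, 65.8 to 71.8%). In WT these were 37 of 63 (58.7%, 45.6 to 71.0%) against 132 of 540 (24.4%, 20.9 to 28.3%). Gjb2, Gjb6 and Slc6a20a together reached 0.1% of UMIs in 0 of 49 dividing N-PRα-KO fibroblasts, which allows up to 7.25% (exact limit), against 320 of 931 other ones (34.4%). In WT they did so in 16 of 63 (25.4%) against 427 of 540 (79.1%). These 3 genes are among the 15 lowest in dividing cells of both libraries. The counts thus restate that ranking cell by cell and are not separate evidence. The share of dividing cells among Col15a1-high fibroblasts was 6.83% in N-PRα-KO and 21.9% in WT, and 4.54% and 17.6% after thinning. Among fibroblasts below the Col15a1 cut it was 0.685% and 5.99%, and 0.344% and 2.99% after thinning. Thinning each cell to 2000 UMIs thus left the order of these shares as it was.

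**Figure D3:**
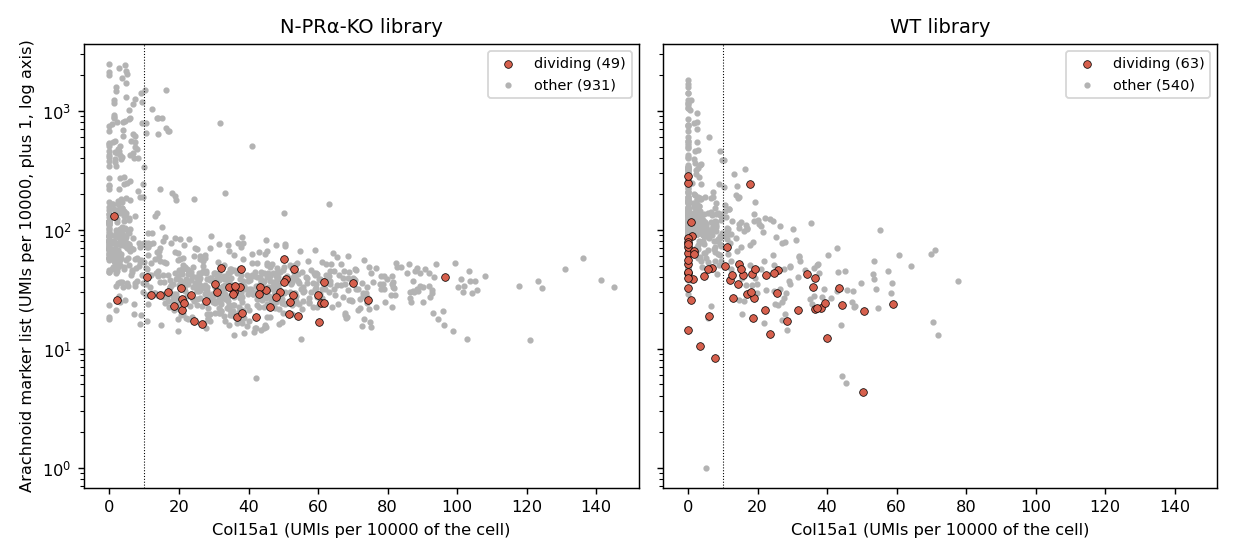
Each point is a fibroblast, with Col15a1 (horizontal) and the summed arachnoid markers (vertical, plus 1, log axis) in UMIs per 10000, dividing cells in red over other cells in grey, N-PRα-KO left and WT right, and the 0.1% cut dotted. In N-PRα-KO 47 of 49 dividing cells lie right of the cut, and in WT 37 of 63.

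With both sides limited to Col15a1-high cells, an alternative added after seeing the data, the division lists stayed high and the arachnoid list came closer to 0. The arachnoid median was then -1.13 in N-PRα-KO and -0.33 in WT. Ptgds was at a log2 ratio of -0.21 in WT there, beside -1.13 in N-PRα-KO. Slc6a20a was at -2.72 and -2.26, beside -3.78 and -2.76 over all fibroblasts of the gate.

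The Pdgf receptors were present in dividing fibroblasts of both libraries. Pdgfra, the targeted gene and the sorted antigen (chromosome 5, 75152292 to 75198215, plus strand), was at 564 CPM in N-PRα-KO dividing fibroblasts (506 to 628) and 605 CPM in WT ones (543 to 671), a log2 ratio of -0.10 (-0.32 to 0.12). In other fibroblasts it was at 693 and 647 CPM, and against other fibroblasts no shallower than the lower quartile of dividing ones the N-PRα-KO log2 ratio of dividing over other was 0.045. After thinning, 65.3% of N-PRα-KO and 76.3% of WT dividing fibroblasts had a Pdgfra UMI, and 65.6% and 68.1% of other fibroblasts; unthinned, the shares in dividing fibroblasts were 98.0% and 98.4%. The interval of the Pdgfra ratio between the genotypes includes 0. The deleted exons are not given in the sources used here, and counts from the 3′ end may lie outside them. Pdgfrb was at 148 CPM in N-PRα-KO and 51.2 CPM in WT dividing fibroblasts, a log2 ratio of 1.53 (0.92 to 2.18), and at 159 and 86.1 CPM in other ones. The ligands were scarce: N-PRα-KO and WT dividing fibroblasts held 3 and 31 UMIs of Pdgfa, 5 and 10 of Pdgfb, 1 and 3 of Pdgfc, and 3 and 10 of Pdgfd.

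Between the libraries, dividing fibroblasts differed at many genes, and base composition moved with these ratios. Of 4250 genes compared in dividing cells 684 (16.1%) were 2-fold or more higher in N-PRα-KO and 426 (10%) 2-fold or more lower, and in other fibroblasts 609 (14.9%) and 366 (8.96%) of 4083. Of the 4250 genes 50.3% were higher and 49.7% lower by any amount. Across 4241 genes the log2 ratio went with the share of G and C in the last 500 bases of the transcript (Spearman's rho 0.50; genes are not replicates), with a median of -0.41 in the fifth poorest in GC and 0.88 in the fifth richest. With this trend removed, 434 genes were past 2-fold higher and 410 lower. The median of all genes was 0.0068. List medians below are followed by the median with the trend removed.

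Most division genes, like most genes, differed by less than 2-fold between dividing cells of the libraries. The mitosis and G2 list had 4 of 57 compared genes past 2-fold higher and 2 lower in N-PRα-KO, with a median of -0.19 (-0.21), and the S phase list 4 of 24 higher and 0 lower, with 0.25 (0.28). Of all 4250 genes compared, 16.1% were past 2-fold higher and 10% lower. The share of the S phase list past 2-fold higher was close to that of all genes. Cdk1, outside the gate, was at 258 CPM in N-PRα-KO and 313 CPM in WT (log2 ratio -0.28, -0.59 to 0.04). Top2a, a gate gene, was at 874 and 888 CPM. Both sets of cells were gated on division UMIs, so the likeness of their division genes is in part set by the gate. Cdc20, the activator of the anaphase complex, was among the 4 past 2-fold higher, at 102 CPM in N-PRα-KO and 18.8 CPM in WT (2.43, 1.49 to 3.51), 1.59 with the trend removed. Ccne2, cyclin E2, was at 21.6 CPM in N-PRα-KO and 68.3 CPM in WT (-1.66, -2.69 to -0.73).

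Many cell cycle inhibitors and early-response genes were lower in N-PRα-KO dividing fibroblasts. Of the inhibitors and p53 targets 7 of 12 were past 2-fold lower and 0 higher, with a median of -1.12 (-0.81). Btg2, an antiproliferative gene, was at 51.6 CPM in N-PRα-KO and 239 CPM in WT, and Gas1, a growth arrest gene, at 58.3 and 179 CPM. Within Col15a1-high cells the log2 ratio of Gas1 was 0.34, higher in N-PRα-KO. Cdkn1c was at 36.6 and 166 CPM, and Cdkn1b, p27, at 145 and 333 CPM. Of the immediate early genes 14 of 19 were past 2-fold lower, with a median of -1.73 (-1.75). Fos was at 396 CPM in N-PRα-KO and 1505 CPM in WT, Klf4 at 83.2 and 441 CPM, and Atf3 at 1.66 CPM (1 UMI) and 83.7 CPM. Other fibroblasts had medians of -1.45 and -1.82 for these 2 lists, so both lists were lower in non-dividing cells too. The log2 ratio in dividing cells minus that in other fibroblasts was 0.95 for Fos (0.73 to 1.16) and -0.67 for Egr1 (-0.98 to -0.36), in opposite directions. These intervals cover counting error and leave out the spread between cells. Fos had 0 UMIs in 23 of the 49 N-PRα-KO dividing cells.

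Layer markers differed between the dividing fibroblasts of the libraries. Of 11 arachnoid markers 8 were past 2-fold lower in N-PRα-KO, with a median of -1.68 (-1.38), and of 7 dural markers 5 were, with a median of -3.02 (-3.43). Of 7 perivascular markers 5 were past 2-fold higher and 1 lower, with 1.33 (0.62). In other fibroblasts these medians were -1.19, -0.87 and 1.70. Gjb2 was at 41.6 CPM in N-PRα-KO and 395 CPM in WT (-3.25, -3.90 to -2.65). Cygb, cytoglobin, was at 269.6 and 17.1 CPM (3.98, 3.06 to 5.07), and Abca8a, a lipid transporter, at 136 and 15.4 CPM. Among transcription factors, Foxp2 was at 4.99 CPM in N-PRα-KO and 106 CPM in WT and Foxc2 at 9.99 and 205 CPM, while Runx1 was at 58.3 and 1.71 CPM and Meox1 at 81.6 and 8.54 CPM. Limited to Col15a1-high cells the dural median was -0.023, and with 10 or more division UMIs -0.90.

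The genes with the lowest ratios were carried by few WT cells. Slc4a10, a bicarbonate transporter, had 0 UMIs in the 49 N-PRα-KO dividing fibroblasts and 384 CPM in the 63 WT ones, all from 14 cells. With the 0 set to the floor of 3 UMIs over the group it was 77.0-fold lower, which is not a confidence limit. Slc26a7, an anion transporter, Prg4, lubricin, and Shisa3 likewise had 0 UMIs in N-PRα-KO, and came from 11, 9 and 11 WT cells. Ogn, the proteoglycan osteoglycin, was broader, at 9.99 CPM in N-PRα-KO and 545 CPM in WT, with UMIs in 5 of 49 and 36 of 63 cells (-5.77, -7.23 to -4.63). The ratio of Ogn in other fibroblasts was -2.42, and the difference between the 2 ratios was -3.35 (-4.52 to -2.18). Rspo3, a Wnt agonist, was at 4.99 CPM in N-PRα-KO and 133 CPM in WT, and Nov (Ccn3) at 16.6 and 499 CPM. With 10 or more division UMIs in each cell, the log2 ratio of Ogn was -4.31, of Nov -2.05 and, with its 0 set to the floor, of Slc4a10 -3.81.

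The highest ratios were in part as large in other fibroblasts. Ajap1, an adherens junction protein, was at 235 CPM in N-PRα-KO and 10.2 CPM in WT dividing fibroblasts (4.52, 3.36 to 5.99), with a ratio of 4.53 in other fibroblasts. None of the other gated cell types (OPCs, microglia, endothelial cells, ependymal cells, astrocytes, mural cells and the neuronal lineage) exceeded 39.6 CPM. Further types, such as choroid plexus cells, were not gated. Lgals1 was at 1641 and 132 CPM (log2 ratio 3.64), with 4.01 in other fibroblasts. Tgfbi, a matrix protein induced by TGF-beta, was at 974 and 164 CPM. Cldn5, Ttr and Ftl1 were also among the highest, but they reached 2901, 2732 and 573 CPM in another cell type of the N-PRα-KO library, above their 173, 1645 and 156 CPM in dividing fibroblasts, and the part of RNA from those cells was not tested. Ftl1 was at most 14.7 CPM in the other gated cell types of WT, and its ratio in other fibroblasts was 4.66. Cox4i1, at 383 and 22.2 CPM in dividing fibroblasts, likewise reached 487 CPM in another cell type of N-PRα-KO and 48.7 CPM in WT. For these 2 genes the libraries thus differed outside fibroblasts too, and the cause was not tested.

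**Figure D4:**
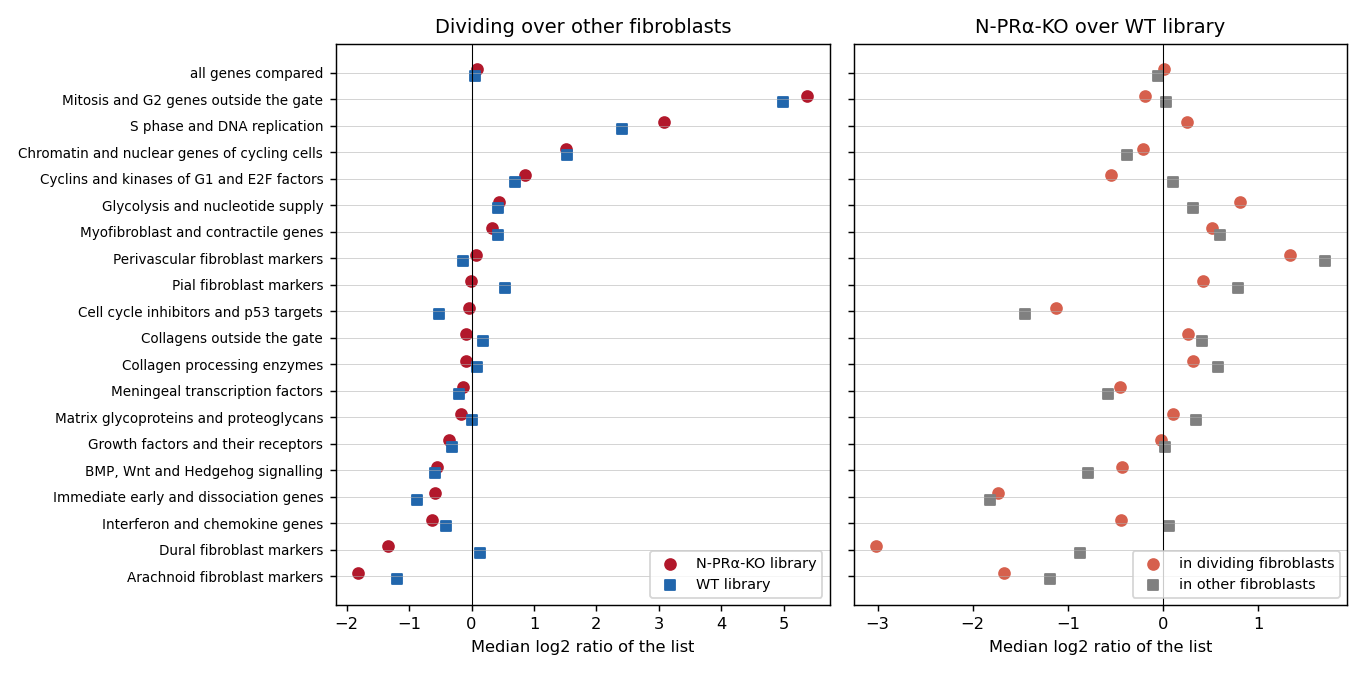
Median log2 ratio of each gene list, left for dividing over other fibroblasts in the N-PRα-KO (red) and WT (blue) libraries, right for N-PRα-KO over WT in dividing (orange) and other (grey) fibroblasts, where lists with fewer than 3 genes compared are not drawn. Division lists lie far right in the left panel and near 0 in the right one, and the dural list is the farthest left in dividing cells, at -3.02. Dividing cells of both libraries were gated on division UMIs, which in part sets where the division lists lie.

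Markers of other cell types had UMIs in the dividing fibroblasts. Microglial markers summed to 774 CPM in dividing and 945 CPM in other N-PRα-KO fibroblasts, and to 670 and 286 CPM in WT fibroblasts, against 31193 and 25852 CPM in the microglial gate, with 0 of 10 markers at 0 in either set of dividing cells. In WT they were higher in dividing than in other fibroblasts (log2 ratio 1.23, 1.05 to 1.40). Astrocyte markers summed to 1593 CPM in dividing and 1970 CPM in other N-PRα-KO fibroblasts and to 1360 and 2557 CPM in WT, against 30678 and 27022 CPM in the astrocyte gate, with 0 of 9 and 1 of 9 at 0 in dividing cells, and reached 1% of UMIs in 0 of 49 and 1 of 63 of them. Choroid plexus markers, mostly Ttr, summed to 1673 and 1801 CPM in N-PRα-KO and 149 and 207 CPM in WT. Endothelial markers summed to 1620 and 1429 CPM in N-PRα-KO and 2265 and 2870 CPM in WT, mostly Itm2a, against 14512 and 12433 CPM in the endothelial gate. OPC markers summed to 662 and 471 CPM in N-PRα-KO and 723 and 611 CPM in WT, with Vcan and Ptprz1 ahead and 1 of 10 and 0 of 10 at 0 in dividing cells. Mural markers summed to 1025 and 2360 CPM in N-PRα-KO and 1235 and 2316 CPM in WT, mostly Vtn, with 0 and 3 of 10 at 0 in dividing cells. Markers of microglia, endothelium, neurons, ependyma or oligodendrocytes reached 1% of UMIs in 0 of 49 N-PRα-KO and 2 of 63 WT dividing fibroblasts, and the doublet caller Scrublet called 0 and 2 dividing cells. It marked only 0.238% of all N-PRα-KO cells, so its 0 there says little. With such cells left out, in turn, no share, gene count or list median moved by more than its limit. The part of RNA from these cell types in single genes was not tested.

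The mitosis and G2 list stood high in dividing cells of other types too. In OPCs of the WT library, 1005 dividing against 4258 other cells, the mitosis and G2 list had a median log2 ratio of 5.69 with 60 of 60 genes past 2-fold higher, the S phase list 2.04 and the immediate early list 0.074. In microglia the mitosis and G2 medians were 5.62 in N-PRα-KO (53 dividing cells) and 5.27 in WT (131 dividing cells), and the immediate early medians -0.20 and -0.39. The immediate early medians of dividing fibroblasts, -0.59 and -0.87, were lower than each of these, and the difference was not tested. The genes compared differed, with 18 in N-PRα-KO and 20 in WT fibroblasts, 9 in WT OPCs, and 18 in N-PRα-KO and 20 in WT microglia.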

How the data were processed

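The deposited files hold raw counts of UMIs per cell and gene, made by the authors with BD's Rhapsody WTA pipeline, in version 1.10 for N-PRα-KO and 1.10.1 for WT, on GRCm38 with GENCODE M19, per the file headers. The headers give different analysis dates, so any batch coincides with genotype. The pipeline had already chosen the cell barcodes. No aligner is named in the headers. The libraries held 8336 barcodes in N-PRα-KO and 11438 in WT, of which 4196 and 10069 passed the filters.

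UMIs were summed over the cells of each gate and scaled to CPM over all UMIs. CPM carry exact Poisson, shares Clopper-Pearson and log2 ratios exact conditional intervals at 95%. The interval of a difference between 2 log2 ratios is a normal approximation to counting error. For rankings, gene counts and list medians, sums under 3 UMIs were set to 3, and ratios printed for 1 or 2 UMIs are unfloored. Gene positions and GC content (lowess trend, fraction 0.3) came from GENCODE M21. Doublets were called with Scrublet (scanpy 1.11.5), which marked 10 N-PRα-KO cells (0.238%) and 174 WT cells (1.73%), and were removed only as an alternative. Named genes were the 15 highest and lowest over both libraries within the library contrast, the 10 highest and lowest between genotypes at 100 CPM or more, up to 4 per list and the PDGF family; mitochondrial, ribosomal, haemoglobin, predicted and sex-linked marker genes were left out of rankings. Others are named for the level they show and were chosen after their values were seen. The cells, lists and markers were chosen with earlier results of these data known. The ratio code was tested on simulated data. Alternatives were other division, mitochondrial, gene and collagen limits, thinning, doublet removal, other minimum levels and scaling.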

Additional observations from a re-analysis of the deposited data

Results flagged for a closer look

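For H19, Fxyd5 and Mgp the dividing fibroblasts were lower than other fibroblasts in the N-PRα-KO library and higher in the WT library, and with 1 library per genotype the difference was not tested. H19, a noncoding RNA of the imprinted Igf2 locus, was at 33.3 CPM in dividing and 247 CPM in other N-PRα-KO fibroblasts, a log2 ratio of -2.89 (-3.61 to -2.26), and at 442 and 363 CPM in WT fibroblasts, 0.28 (0.082 to 0.48), with UMIs in 14 of 63 dividing WT cells. Fxyd5, a regulator of the sodium pump on the dural list, was at 28.3 against 103 CPM in N-PRα-KO, -1.86 (-2.65 to -1.17), and 229 against 188 CPM in WT, 0.29 (interval 0.00036 to 0.56). Mgp, matrix Gla protein, also on the dural list, was at 193 against 489 CPM in N-PRα-KO, -1.34 (-1.62 to -1.07), and 1008 against 912 CPM in WT, 0.14 (0.012 to 0.27). The intervals cover counting error only. The direction in WT changed with the limits used. In WT the log2 ratios of H19, Fxyd5 and Mgp were -0.40, -0.13 and -0.62 with 4 or more division UMIs, -0.62, -0.40 and -0.84 with 5 or more, -1.85, -1.56 and -1.06 with 10 or more, -2.95, -2.11 and -1.74 with cells thinned before the gate, and -0.26, -0.20 and -0.30 against other fibroblasts no shallower than the lower quartile of dividing ones. In WT H19 was also at -0.32 and Fxyd5 at -0.19 with a collagen share of 1% or more, Mgp at -0.34 within Col15a1-high cells, and Fxyd5 at -0.00017 and Mgp at -0.11 with 2 or more division UMIs. In N-PRα-KO Fxyd5 turned higher, to 0.29 with 2 or more division UMIs and 0.64 after thinning.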

How the results depend on the processing

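Of 15 alternatives chosen at the start and 4 added after seeing the data, which gave 77 values of shares and gene counts, 52 values stayed within their limits (the interval of a share, 1.5 times for a count) and 25 moved. The share of dividing fibroblasts was 7.45% in N-PRα-KO and 13.9% in WT at 2 or more division UMIs, 3.27% and 6.47% at 10 or more, 3.41% and 7.20% with cells thinned before the gate, 6.83% and 21.9% in Col15a1-high cells, and 12.7% (10 of 79 cells) and 27.3% (3 of 11 cells) at a mitochondrial limit of 10%, which leaves too few cells to read. The number of genes past 2-fold between dividing and other fibroblasts, 431 in N-PRα-KO and 454 in WT, became 235 and 293 at 2 or more division UMIs, 928 and 990 after thinning, 1004 and 116 at the 10% limit, 1593 and 1429 without a minimum CPM, 86 and 102 at 200 CPM, and in WT 788 at 10 or more division UMIs. The number past 2-fold between the genotypes in dividing cells, 1110, became 309, 383, 1939 and 244 after thinning, at the 10% limit, without a minimum and at 200 CPM, and 844 with the GC trend removed. The cause was not tested, beyond fewer UMIs and genes entering by construction. The dural list, dividing over other in N-PRα-KO (main median -1.34 over 5 genes), reversed to 0.24 at 2 or more division UMIs and 0.33 after thinning. Of the other list medians 924 were unchanged within their limits and 59 moved, and of values for genes described above 2184 and 440, while 39 reversed. In WT, H19, Fxyd5 and Mgp reversed to -0.40, -0.13 and -0.62 at 4 or more division UMIs, -0.62, -0.40 and -0.84 at 5 or more, -1.85, -1.56 and -1.06 at 10 or more, -2.95, -2.11 and -1.74 after thinning and -0.26, -0.20 and -0.30 against deeper other fibroblasts, H19 and Fxyd5 to -0.32 and -0.19 at 1% collagen, Mgp to -0.34 in Col15a1-high cells, and Fxyd5 and Mgp to -0.00017 and -0.11 at 2 or more division UMIs. In N-PRα-KO, dividing over other, Fxyd5 reversed to 0.29 and Fbln2 to -0.0038 at 2 or more, Fos to 0.096 at 10 or more, Fxyd5, Ccnd1 and Cdkn1c to 0.64, -0.47 and 0.036 after thinning, Fos, Fbln2 and Col15a1 to 0.53, -0.21 and -0.13 in Col15a1-high cells (Col15a1 in WT to -0.11), Pdgfra to 0.045 against deeper other fibroblasts, and Fos, Ccnd1, Fbln2 and Col15a1 to 1.52, -0.27, -0.13 and -0.086 at the 10% limit, where Col15a1 and Col4a1 in WT reversed to -0.10 and -0.95. Between the genotypes Gas1 reversed to 0.34 in Col15a1-high cells and Pdgfrb to -0.42 at the 10% limit. The cause of these reversals was not tested. No replicate could be left out with 1 library per genotype. No paired analysis was possible because each genotype has 1 library. Depth limits genes near the floor of 3 UMIs in the dividing cells, where 1 UMI is worth 1.66 CPM in N-PRα-KO and 1.71 CPM in WT.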
